A study of Mus musculus with 2 samples.

Results

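Growth hormone (GH) from the pituitary acts on hepatocytes through the GH receptor, a class I cytokine receptor that carries the kinase JAK2. Activated JAK2 phosphorylates STAT5a and STAT5b, which enter the nucleus and bind DNA at short palindromic motifs. Among the genes driven in this way are Igf1, which encodes the circulating growth factor IGF-1, and the feedback inhibitors Cish and Socs2. In blood, IGF-1 is carried by IGF-binding proteins, and the complex with IGFBP-3 is held together by the acid-labile subunit, the product of Igfals. The genes described here are 10 members of this axis, Ghr, Stat5a, Stat5b, Igf1, Igfals, Socs2, Cish, Igfbp2, Igfbp3 and Igfbp4, chosen by name out of 27962 gene names on the array.

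Expression was measured in the liver of male C57BL/6 mice without apolipoprotein E (apoE-KO mice), an animal model of hypercholesterolemia. From an age of 10 weeks they received normal chow or the same chow with 1.25% cholesterol (the high-Chol diet), and the livers were taken after 1 week. Each diet was represented by 3 one-colour arrays from independent experiments, and whether an array held the RNA of 1 mouse or of several is not given in the sources used here. All mice of both diets were apoE-KO mice, so no wild-type liver enters any comparison. Apoe, the targeted gene, gave a signal well above background on all 6 arrays, between 1.66 and 3.81 (log2) on normal chow and between 3.18 and 3.57 under the high-Chol diet. The part of the gene that its probe covers in relation to the deletion is not known here, and the deletion was shared by both diets, so these values do not check the diet labels.

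All values are log2 signals from which the array's own 75th percentile was subtracted, so that 0 marks a bright but common spot level, and differences are high-Chol diet minus normal chow. The arrays are numbered here by slide and position. Normal chow arrays 1 to 3 and high-Chol array 1 lay on slide 1, and high-Chol arrays 2 and 3 lay on slide 2, which was read with another version of the scanner software. The 75th percentile was 271 to 374 on slide 1 and 762 to 799 on slide 2. Because 1 slide holds both diets, the difference of each member is also given with slide in the model, and that of any other gene whose difference is printed where slide moved it by over 1.5 times or turned its sign. Such a difference equals the difference between high-Chol array 1 and the 3 normal chow arrays of its slide. In whole liver RNA, fewer cells of a type and less RNA per cell cannot be told apart.

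The liver origin of the RNA was visible in the hepatocyte markers. All 7 measured hepatocyte markers, among them Alb, Apoa1 and Cps1, were well above background on the 6 arrays. Their summed level was 1800 to 2010 times the 75th percentile on normal chow and 1390 to 1560 under the high-Chol diet, so that the diets did not overlap. Of the 7 differences, 6 were negative, while Ttr was higher without overlap (0.48, and 0.18 with slide), against 11.9% of all genes. The sums were taken on the 75th percentile scale only. The difference of Alb, the brightest of these genes, was -0.34 on that scale and 0.0076 after quantile normalization. The summed level of 5 macrophage markers measured on every array was 75 to 98.1 on normal chow and 185 to 278 under the high-Chol diet, and 185 on the high-Chol array of slide 1. This sum is linear and is mostly Lyz2, whose mean was 5.90 (log2) on normal chow and 7.68 under the high-Chol diet. Clec4f, the next brightest of the 5, had means of 4.24 and 4.65. Csf1r (0.28) overlapped between the diets and was 0.04 after scaling to the median. All 7 measured macrophage markers had a positive difference and 2 of them, Cd68 (1.74) and Lyz2 (1.78), were called higher, against 2.69% of all genes. Neither passed with slide in the model, where Cd68 was at 1.66 (limma adjusted p = 0.0829) and Lyz2 at 1.32 (adjusted p = 0.106), nor with a normexp background. Lyz2 also lost its call without high-Chol array 2 or 3 or normal chow array 2 or 3 (adjusted p = 0.0566 to 0.0833). The summed levels of the endothelial markers (29.4 to 33.4 against 29.8 to 32.9) overlapped between the diets, as did those of the stellate cell markers (7.96 to 10.8 against 10.4 to 12.7) and of the cholangiocyte markers (1.1 to 1.24 against 0.855 to 1.13). The 6 stellate cell markers had a median difference of 0.25, with 4 higher and 2 lower, which was 0.02 with 3 lower after scaling to the median, 0.64 with slide in the model, 0.08 without normal chow array 2 and 0.12 without high-Chol array 1. The collagen genes Col1a1 (1.04) and Col3a1 (0.82) were higher without overlap, against 11.9% of all genes, and the others were Des (0.44), Acta2 (0.07), Reln (-0.0058) and Lrat (-0.16). In the model with slide these were 0.85 for Des, 0.48 for Acta2, -0.03 for Reln and -0.43 for Lrat. Of the 6, only Col1a1 was called higher (SE 0.17, limma adjusted p = 0.0257), against 2.69% of all genes. The Col1a1 call was lost with slide in the model (1.16, adjusted p = 0.148), after median scaling (0.80, adjusted p = 0.111), with a normexp background, and without high-Chol array 2 or 3 or normal chow array 2 or 3 (adjusted p = 0.0852 to 0.127). The part that these shifts have in the values of the axis genes was not tested.

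STAT5 proteins bind motifs of the form TTCNNNGAA, which read the same on both strands. In the RefSeq promoter windows of build GRCm38.p6, from 250 bases before to 50 bases after each annotated start, this motif was found in 2726 of 32851 windows (8.3%), and 150 windows (0.457%) held more than 1 match. Of the 10 genes, 9 had at least 1 window, and 2 of them, Cish and Igfals, held the motif, in 3 of 15 windows. All 3 of these windows are shown in part, and the array values of both genes were known beforehand. A link between the motif and the differences in the arrays was not tested. Capitals mark the motif. The Cish stretch, chr9:107296599-107296683 on the + strand, begins 60 bases before the start and ends at base 25 after it, and its motifs begin at base 1 and at base 12. The first Igfals stretch, chr17:24877594-24877683 on the + strand, has the motif 236 bases before an annotated start. The second, chr17:24878163-24878192 on the + strand, has it 58 bases before another annotated start.
Cish: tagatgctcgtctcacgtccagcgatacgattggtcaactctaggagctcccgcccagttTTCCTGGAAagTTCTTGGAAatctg
Igfals, first window: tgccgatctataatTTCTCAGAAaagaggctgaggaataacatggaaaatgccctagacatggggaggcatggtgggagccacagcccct
Igfals, second window: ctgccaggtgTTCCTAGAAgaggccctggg
The windows of Ghr, Stat5a, Stat5b, Igf1, Igfbp2, Igfbp3 and Igfbp4 did not hold these letters, and no window of Socs2 was used here. A match is a property of the sequence and was not tested for binding.

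None of the 10 genes passed the test between the diets. By limma over 16725 genes with Benjamini-Hochberg adjustment, 0 of 10 members were called lower, against 0.227% of all genes, and 0 of 10 were called higher, against 2.69% of all genes. Without adjustment, 2 of 10 members, Cish and Igfbp4, had a limma p under 0.05, against 21.2% of all genes in either direction. The methods' t-test on the same values also called 0 members after adjustment, and 1 had an unadjusted p under 0.05. In mean signal, 6 members were lower and 4 were higher on the high-Chol diet. This tally depended on the scaling and on single arrays, with 9 of 10 lower after scaling to the median, 5 of 10 without normal chow array 2, and 8 of 10 without normal chow array 1 or high-Chol array 1. Their median difference was -0.27, while the median of all genes was -0.02. With an array left out it ran from -0.34 (without normal chow array 1) to -0.05 (without normal chow array 2). It was -0.48 after scaling to the median, with all genes at -0.26, and -0.09 with a normexp background, with all genes at -0.11. Of the 9 members with a value on all 6 arrays, 4 (Cish, Igfals, Igfbp4 and Igf1) were lower on every high-Chol array than on any normal chow array. Over all genes this was so for 14% of genes in the lower and for 11.9% in the higher direction, and 0 members were higher without overlap. For 3 arrays against 3, the exact two-sided permutation p cannot go below 0.1, which is the value of each of these 4 genes.

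**Figure D1:**
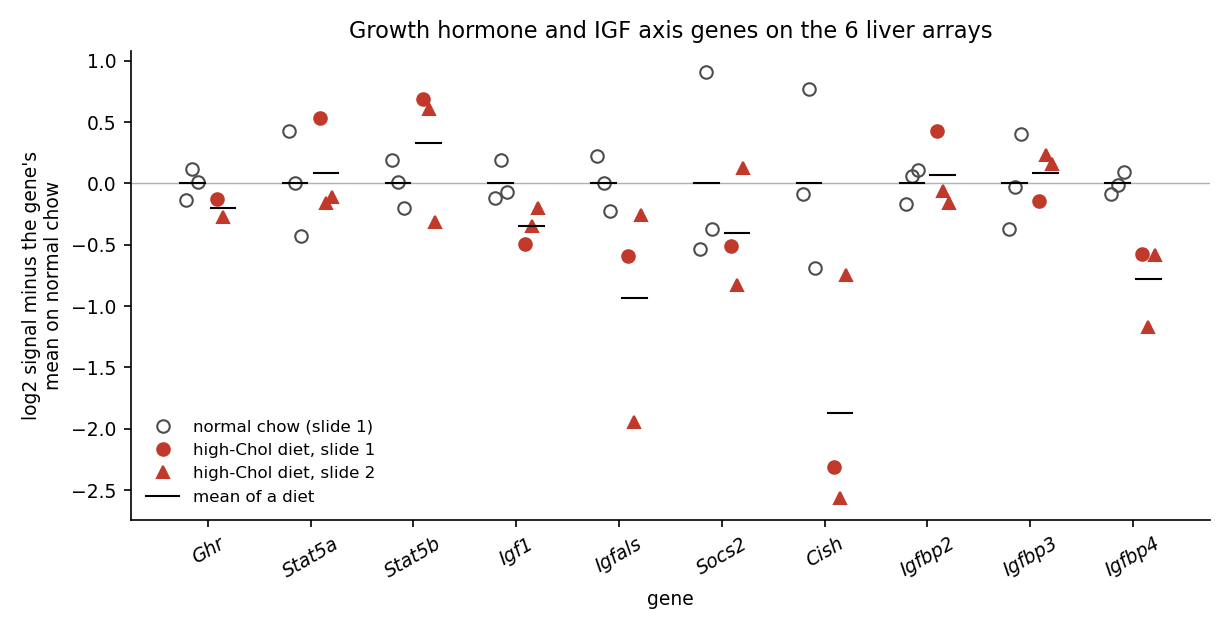
Log2 signal of each gene on each array minus the mean of that gene over the 3 normal chow arrays (vertical axis), by gene (horizontal axis). Open circles are normal chow arrays, filled circles the high-Chol array of slide 1, triangles the high-Chol arrays of slide 2, and bars the mean of a diet. All filled symbols of Cish, Igfals, Igfbp4 and Igf1 lie below the open circles of the same gene.

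The signals of the feedback inhibitors varied widely between arrays of the same diet. Cish encodes CIS, an SH2 protein that is made in response to STAT5 and blocks its docking at the receptor. Its probe (chr9:107031313-107031372 of mm7, + strand) read 3.19, 4.05 and 2.59 on normal chow arrays 1, 2 and 3, and 0.96, 0.71 and 2.54 on high-Chol arrays 1, 2 and 3. The first 2 high-Chol arrays lay far below every normal chow array, while high-Chol array 3 was just below normal chow array 3. The difference of Cish was -1.88 (SE 0.55, n = 3 and 3), a 3.67-fold lower signal, with a limma p of 0.0112 and an adjusted p of 0.137. Only 26 of the 16725 genes had a lower difference, as a description of its size. With slide in the model the difference was -2.32 (SE 0.79), with an adjusted p of 0.462. Socs2, which encodes the SOCS protein that limits GH receptor signalling and body growth, read 0.38, 1.82 and 0.54 on normal chow and 0.40, 0.08 and 1.03 under the high-Chol diet. The diets overlapped, and the difference of -0.41 (SE 0.42, limma adjusted p = 0.582) rested on normal chow array 2, since it was 0.046 without it. Normal chow array 2 had the highest signal among the normal chow arrays for both Cish and Socs2, and high-Chol array 3 the highest among the high-Chol arrays. A second Socs2 probe was not well above background on all arrays of either diet and was not tested.

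The liver transcripts of Igf1 and Igfals, whose protein products circulate in blood, had lower mean signals on the high-Chol diet. The arrays measure RNA and not the circulating proteins. Igf1 was represented by 3 probes. The brightest, which stands for the gene (chr10:87488982-87489041 of mm7, + strand), read 6.51, 6.82 and 6.55 on normal chow and 6.14, 6.28 and 6.43 under the high-Chol diet. This probe was spotted 10 times per array, and the SD over its spots was 0.04 to 0.11, so that the precision of reading was finer than the spread between arrays (SD 0.17 on normal chow and 0.15 under the high-Chol diet). The lowest normal chow mean lay above the highest high-Chol mean, but single spots of the diets overlapped. The difference of Igf1 was -0.35 (SE 0.16), a 1.27-fold lower signal, with a limma adjusted p of 0.267, and it was -0.49 with slide in the model.

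**Figure D2:**
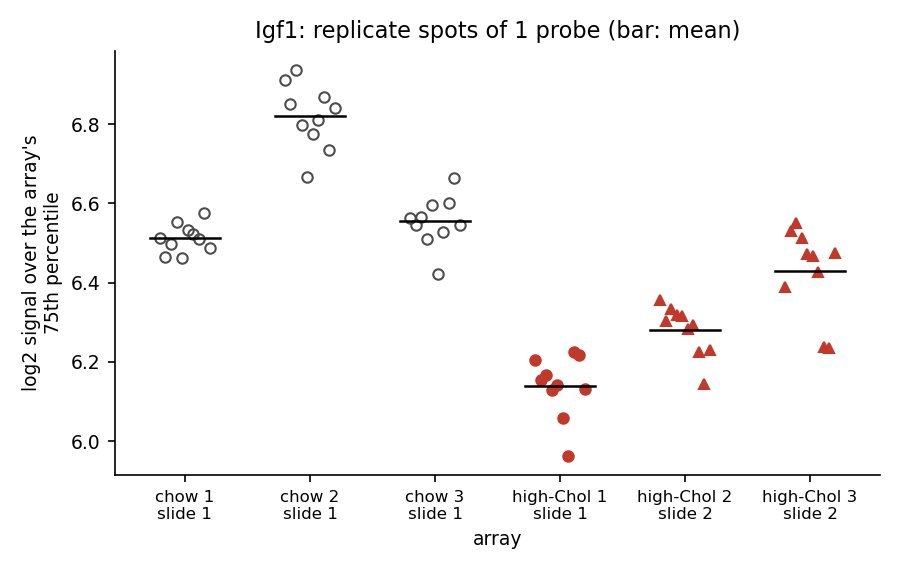
Log2 signal over the 75th percentile of the array (vertical axis) for the 10 spots of the brightest Igf1 probe on each array (horizontal axis). Points are spots and bars the mean of the 10 spots, with open circles for normal chow, filled circles for the high-Chol array of slide 1 and triangles for those of slide 2. The means run from 6.51 to 6.82 on normal chow and from 6.14 to 6.43 under the high-Chol diet.

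A second Igf1 probe (chr10:87471884-87471943 of mm7) read 6.43, 6.85 and 6.49 on normal chow and 6.16, 5.98 and 6.25 under the high-Chol diet, a difference of -0.47 (SE 0.18). The third Igf1 probe (chr10:87420848-87420907 of mm7), taken from a cDNA record and not from a RefSeq transcript, read -0.35, 1.22 and 0.13 on normal chow and -1.33, -0.56 and -0.67 under the high-Chol diet, a difference of -1.19 (SE 0.41). All 3 Igf1 probes were lower on every high-Chol array than on any normal chow array, and limma over every probe by itself gave adjusted p-values of 0.287, 0.216 and 0.188. Igfals, which encodes the acid-labile subunit, read 3.71, 3.49 and 3.26 on normal chow and 2.90, 1.54 and 3.23 under the high-Chol diet. The gap between the diets was thin, with high-Chol array 3 just under normal chow array 3, and the spread came mainly from high-Chol array 2. The difference of Igfals was -0.93 (SE 0.42), a 1.91-fold lower signal, with a limma adjusted p of 0.254. It was -0.42 without high-Chol array 2 and -0.59 with slide in the model.

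The 3 binding proteins among the members gave different results. Igfbp4 encodes a binding protein that restrains IGF action in tissues. Its brighter probe (chr11:99161059-99161118 of mm7, + strand) read 4.23, 4.29 and 4.40 on normal chow and 3.73, 3.14 and 3.73 under the high-Chol diet. The normal chow arrays lay close together (SD 0.09), and every high-Chol array lay well below them. The difference of Igfbp4 was -0.78 (SE 0.20), a 1.71-fold lower signal, with a limma p of 0.0061 and an adjusted p of 0.105, the lowest of the 10 members. The second Igfbp4 probe (chr11:99157316-99157375 of mm7) read 3.12, 2.89 and 3.35 on normal chow and 2.63, 1.93 and 2.48 under the high-Chol diet, a difference of -0.77 (SE 0.23). With slide in the model the difference of Igfbp4 was -0.58, with an adjusted p of 0.598. The gene passed the test in 2 alternatives, with array weights (-0.85, adjusted p = 0.0281) and without high-Chol array 1 (-0.87, adjusted p = 0.035), but in the latter diet and slide cannot be told apart. The array weights were 0.33 for high-Chol array 1 and 1.39 and 1.51 for the arrays of slide 2, so in the former the high-Chol mean also rests mostly on slide 2.

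Igfbp2, a binding protein that the liver secretes in amounts that rise when GH action is low, read 6.17, 6.40 and 6.45 on normal chow and 6.77, 6.27 and 6.18 under the high-Chol diet. The diets overlapped, and the difference of 0.07 (SE 0.20, limma adjusted p = 0.858) was 0.43 with slide in the model. Igfbp3, whose product carries most IGF-1 in blood, gave 2 probes of opposite direction. The brighter read -0.71, -0.37 and 0.07 on normal chow and -0.48, -0.11 and -0.18 under the high-Chol diet, a difference of 0.08 (SE 0.23, limma adjusted p = 0.851). The other, on a RefSeq transcript and at positions that span more than its own length in mm7, read -2.16, -1.62 and -2.08 on normal chow and -2.65, -2.17 and -2.44 under the high-Chol diet. Its difference was -0.47 (SE 0.21) without overlap between the diets, so no direction is given for Igfbp3.

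For the receptor and its transcription factors, no probe with a value on all 6 arrays separated the diets. Ghr encodes the GH receptor and also its soluble binding form. Its brightest probe read 5.77, 6.02 and 5.91 on normal chow and 5.77 and 5.63 on high-Chol arrays 1 and 2, and its spot on high-Chol array 3 was marked as an outlier and left out of the fit. The difference of Ghr was -0.20 (SE 0.18, n = 3 and 2, limma adjusted p = 0.519), and it was -0.13 with slide in the model. The 4 other Ghr probes gave differences of -0.48, -0.32, 0.036 and 0.19, the first of them without a value on either array of slide 2. In the model with slide the other 3 were at -0.18, -0.037 and -0.079, so that none of the 5 probes was above 0. The probes that gave the positive values were from cDNA records, and the 3 Ghr probes with a value on all 6 arrays overlapped between the diets. Stat5b, the main STAT5 protein of male liver, read 2.65, 2.47 and 2.26 on normal chow and 3.15, 3.06 and 2.15 under the high-Chol diet. High-Chol arrays 1 and 2 were above and array 3 below all normal chow arrays, and the difference was 0.33 (SE 0.29, limma adjusted p = 0.515). Its size rested on single arrays and on the scaling, with 0.64 without high-Chol array 3, 0.15 without array 1, 0.19 without array 2, 0.09 after scaling to the median and 0.08 in the authors' deposited values. Its other probes gave 0.05 and 1.00 (0.49 and 1.18 with slide), the latter from a cDNA record and near background on normal chow, where it was well above background on 2 of 3 arrays. Stat5a, the closely related partner gene, read 0.45, 0.02 and -0.41 on normal chow and 0.55, -0.14 and -0.09 under the high-Chol diet. The difference of Stat5a was 0.09 (SE 0.28, limma adjusted p = 0.87), and it turned to -0.15 after scaling to the median.

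**Figure D3:**
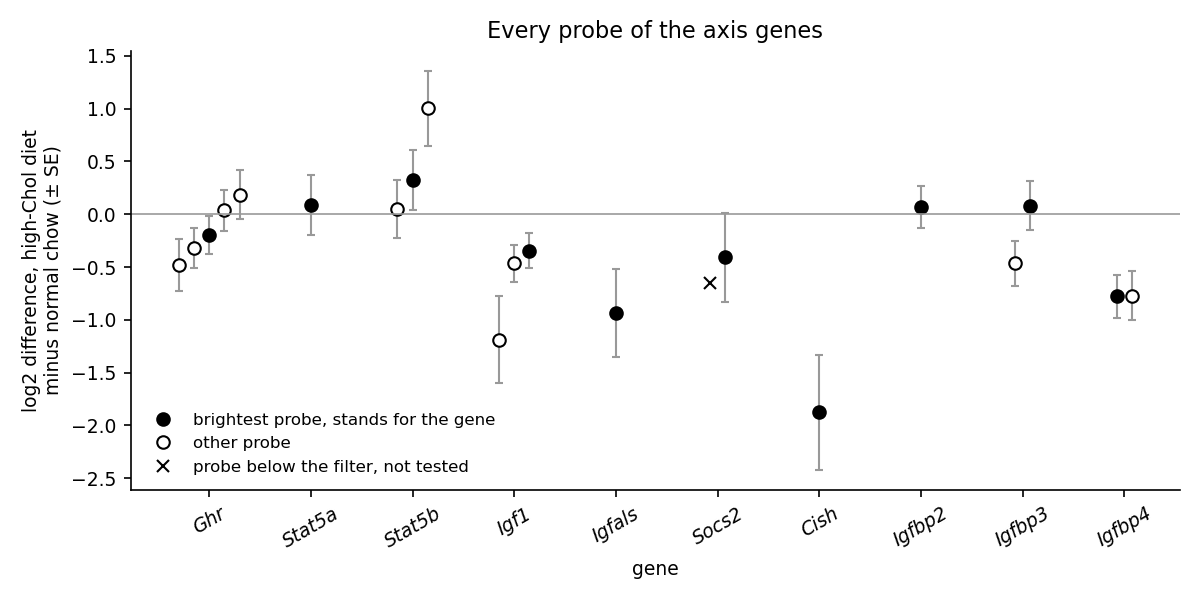
Log2 difference between the diets, high-Chol diet minus normal chow (vertical axis), for every probe of each gene (horizontal axis). Filled circles are the probes that stand for a gene, open circles other probes, the cross the Socs2 probe that was not tested, and bars the SE from limma. The 3 Igf1 probes and the 2 Igfbp4 probes lie below 0, while the Ghr and Igfbp3 probes fall on both sides of it.

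Counted by probe, 20 of the 21 probes of these genes passed the filter, of which 12 were lower and 8 higher on the high-Chol diet. Of the 18 with a value on all 6 arrays, 8 were lower on every high-Chol array than on any normal chow array, against 13.3% of all such probes, and 0 were higher without overlap. Probes of the same gene measure the same RNA and are not independent. In the limma fit over every probe, 0 of the 20 were called, and the lowest adjusted p was 0.111.

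Slide moved several of these differences. With slide in the model, 7 of 10 members were lower with a median of -0.32, the median of all genes was -0.06, and 0 members were called. Igf1, Cish and Socs2 were then further below 0 (-0.49, -2.32 and -0.51), and Igfals and Igfbp4 nearer to it (-0.59 and -0.58). Stat5a, Stat5b and Igfbp2 lay further above 0 (0.53, 0.69 and 0.43), and Igfbp3 turned from 0.08 to -0.14. These values rest on 1 high-Chol array. A normexp background moved the median of all genes to -0.11 and brought Igf1, Igfals and Igfbp4 nearer to 0 (-0.06, -0.57 and -0.46), with Cish at -1.46.

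**Figure D4:**
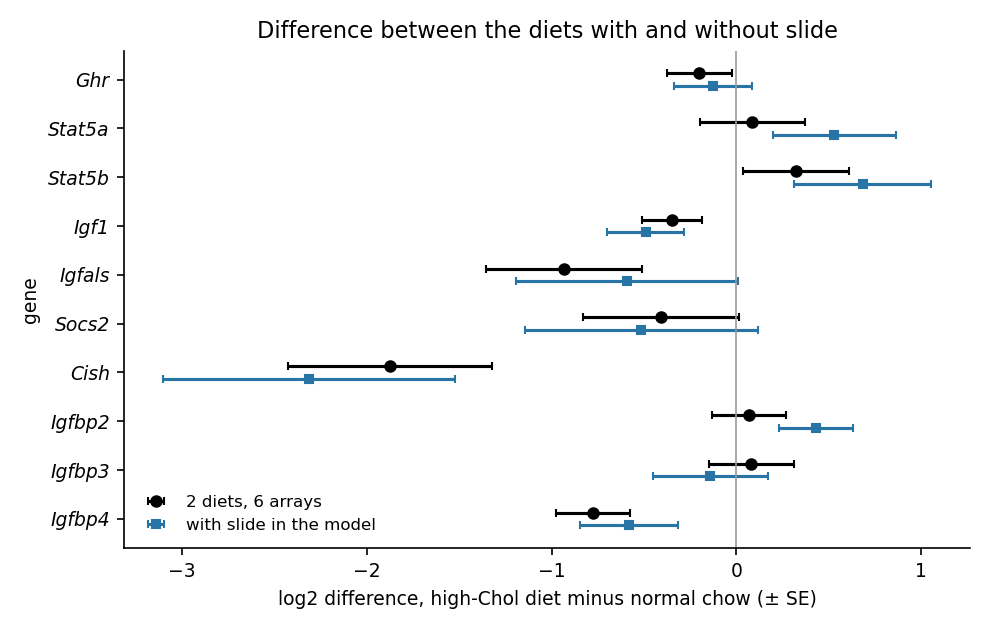
Log2 difference, high-Chol diet minus normal chow (horizontal axis), for each gene (vertical axis), with the SE from limma as bars. Circles are the comparison of the 6 arrays by diet and squares the same with slide in the model. Cish has the lowest value in both, at -1.88 and -2.32.

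The other parts of the pathway were described from lists of known genes. In GH receptor signalling, 1 of 9 measured genes was called higher, against 2.69% of all genes, and 0 lower, against 0.227%. Sirpa, an inhibitory membrane protein that JAK2 phosphorylates and that is abundant on macrophages, read 1.33, 1.23 and 1.22 on normal chow and 2.75, 2.90 and 2.70 under the high-Chol diet. It rose by 1.52 (SE 0.14, limma adjusted p = 0.00626), and with slide in the model the difference was 1.48 with an adjusted p of 0.0829. The call was also lost without normal chow array 2 (adjusted p = 0.0514) and with a normexp background, where 0 genes were called in all (1.59, adjusted p = 1). Ptpn6, the phosphatase SHP-1 of blood cells, had a difference of 0.47, and Irs1, an insulin and IGF-1 receptor substrate, one of 0.49 (0.28 with slide). Ptpn11, the phosphatase SHP-2, had a difference of -0.52 (-0.33 with slide). Without high-Chol array 1 it was called lower (-0.61, limma adjusted p = 0.0453), against 4.43% of all genes, but diet and slide cannot then be told apart. The list had 3 genes lower and 6 higher and a median of 0.42, which was 0.18 after scaling to the median, with all genes at -0.26 on that scale, and 0.13 with a normexp background, with all genes at -0.11. The model with slide had 1 gene lower and a median of 0.19. Of its genes, 5 were higher without overlap, against 11.9% of all genes, and 1, Ptpn11, was lower without overlap, against 14% of all genes. The macrophage markers had higher mean signals on the same arrays, and their part in these values was not tested.

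The other members of the CIS and SOCS family had small differences. All 6 were measured, 3 were lower and 3 higher, their median was -0.05, and 0 were called or without overlap. The even split depended on the setting, with 5 of 6 lower after scaling to the median (median -0.28) and with a normexp background (-0.15), and 2 of 6 lower with slide in the model (0.04). Socs3, the inhibitor of IL-6 type signalling, had a difference of -0.10, Socs1 of 0.39, Socs6 of 0.18 and Socs4 of -0.11. In the model with slide these were -0.28 for Socs3, 0.22 for Socs1, 0.045 for Socs6 and -0.26 for Socs4. The sign of Socs1 turned with a normexp background, that of Socs6 with scaling to the median, and that of Socs3 without normal chow array 2. Like Cish and Socs2, Socs3 had its highest signal on normal chow array 2, at 2.47 against 1.43 and 1.29 on normal chow arrays 1 and 3.

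Of the IGF ligands, receptors and proteases, 5 of 9 were measured, 4 were lower and 1 higher, and 0 were called. Igf2r, the receptor that clears IGF-2, had a difference of -0.35 without overlap between the diets, and Insr, the insulin receptor, one of -0.20 (-0.36 with slide). Igf1r, the IGF-1 receptor, had a difference of -0.64 that was -0.12 with slide in the model, and Htra1, a protease that cleaves binding proteins, one of -0.22 that was 0.15 with slide. Without high-Chol array 1, Igf1r was called lower (-0.91, limma adjusted p = 0.0293) and the higher gene, Stc1, an inhibitor of IGF-releasing proteases, was called too (4.87, adjusted p = 0.0025), with diet and slide not to be told apart. In that fit 786 of 17748 genes were called lower and 3155 higher. Stc1 read -4.09, -3.20 and -3.94 on normal chow, -3.63 on high-Chol array 1, and 1.03 and 1.23 on the arrays of slide 2. Its difference over all arrays was 3.29 (SE 1.22, limma adjusted p = 0.199), 0.11 with slide in the model and 0.96 with a normexp background. Stc1 was well above background on 2 of 3 normal chow arrays and on all 3 high-Chol arrays, and entered the test only through the latter, so these differences are set partly against background.

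Of the other binding proteins, 3 of 4 were measured and 0 were called. Igfbp1, an acute target of insulin and fasting, had the widest spread of the genes of this list on normal chow, with 4.67, 6.23 and 6.77 against 7.64, 6.73 and 4.92 on the high-Chol diet. Its difference of 0.54 (SE 0.78) was 1.75 with slide in the model and turned negative without normal chow array 1 or high-Chol array 1. Igfbp7 had a difference of 0.38 (0.22 with slide) without overlap between the diets. Igfbp5, the remaining gene, read -1.10, -1.35 and -1.70 on normal chow and -3.39, -4.48 and -1.32 under the high-Chol diet. High-Chol array 3 lay within the normal chow range. The difference was -1.68 (SE 0.72, limma adjusted p = 0.24), -0.97 without high-Chol array 2, -0.66 with a normexp background, and called lower without high-Chol array 3 (-2.55, adjusted p = 0.0454). Igfbp5 was well above background on 2 of 3 high-Chol arrays and entered the test only through normal chow, so these differences too are set partly against background.

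Among related class I cytokine receptors, all 6 were measured, 3 lower and 3 higher, with a median of -0.08 and 0 called. After scaling to the median 5 of 6 were lower with a median of -0.31, and with a normexp background 3 of 6 with a median of -0.22. Without high-Chol array 1, 2 or 3, the median was -0.18, 0.0018 or -0.09, with 4, 3 or 5 of 6 lower. Lifr, the receptor for leukaemia inhibitory factor, read 5.52, 5.47 and 4.86 on normal chow and 4.32, 3.48 and 4.29 under the high-Chol diet. Its difference was -1.25 (SE 0.29, limma adjusted p = 0.0825) without overlap, and -0.96 with slide in the model. Without high-Chol array 1 it was called lower (-1.40, limma adjusted p = 0.0304), against 4.43% of all genes, but diet and slide cannot then be told apart. Il6ra, the IL-6 receptor, had a difference of -0.78 without overlap. Lepr, the leptin receptor, had one of 1.04 in the other direction without overlap (0.61 with slide and -0.50 with a normexp background). Lepr was well above background on only 2 of 3 normal chow arrays and entered the test only through the high-Chol diet. Its difference is thus set partly against background. Over all genes, 14% were lower and 11.9% higher without overlap. Il6st, the shared signalling chain, had a difference of -0.19 and Epor, the erythropoietin receptor, of 0.13, and both signs turned with slide in the model (0.042 and -0.18).

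GH reaches male liver in pulses, and a group of male-biased genes depends on these pulses and on STAT5b. Of 13 such genes 12 were measured, 10 of them lower and 2 higher on the high-Chol diet, with a median of -0.63. None was called by limma, and 8 of the 11 with a value on all 6 arrays were lower without overlap, against 14% of all genes. With slide in the model the list kept 10 lower and 2 higher, with a median of -0.38, and with a normexp background 9 were lower, with a median of -0.34. Hsd3b5, a male-specific steroid dehydrogenase, read 4.88, 4.45 and 4.38 on normal chow and 4.32, 1.35 and 2.47 under the high-Chol diet. High-Chol array 1 was just below the normal chow arrays and the arrays of slide 2 were far below, so that the difference of -1.85 (SE 0.68, limma adjusted p = 0.194) was -0.25 with slide in the model. Cyp7b1, an oxysterol hydroxylase of bile acid synthesis, had a difference of -1.04 (SE 0.30), which was -0.71 with slide. Selenbp2, a selenium-binding protein, had one of -0.94 (SE 0.29), which was -0.50 with slide. Elovl3, a fatty acid elongase, was opposite, with 4.32, 1.77 and 1.91 on normal chow and 4.73, 5.14 and 3.10 under the high-Chol diet, a difference of 1.66 (SE 0.79). Without high-Chol array 1, 7 of the 11 genes then measured were called lower, against 4.43% of all genes, namely Hsd3b5, Cyp7b1, Selenbp2, Cyp2d9, Mup1, Mup3 and Serpina1e, but diet and slide cannot then be told apart. Mup1, Mup3, Serpina1e and the P450 genes belong to families of near-identical sequences, so their probes may read more than 1 gene.

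Female-biased genes, which GH pulses hold down in male liver, had differences of both signs. Of 13 genes 8 were measured, 3 lower and 5 higher with a median of 0.25, and 0 were called or without overlap. Cd36, a fatty acid carrier that macrophages express too, read 0.50, 1.17 and 1.72 on normal chow and 1.64, 3.03 and 3.04 under the high-Chol diet, a difference of 1.44 (SE 0.46, limma adjusted p = 0.16) that was 0.51 with slide. Without high-Chol array 1 it was called higher (1.91, limma adjusted p = 0.0155), as were 3155 of 17748 genes in that fit, where diet and slide cannot be told apart. The P450 genes Cyp2b13, Cyp2a4 and Cyp3a44 had differences of -0.67, -0.50 and 0.55, and with slide Cyp2b13 was at -1.07 and Cyp3a44 at 0.073. Without normal chow array 1, 5 of the 8 genes were lower and the median was -0.10. After scaling to the median, 4 of the 8 were lower and the median was 0.01.

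The liver transcription factors linked to GH action had lower mean signals in all 8 cases, with a median of -0.47 and 0 called, and 4 of the 7 with a value on all 6 arrays were lower without overlap, against 14% of all genes. Onecut1, the GH-responsive factor HNF-6, read 3.02, 2.93 and 2.82 on normal chow and 1.59, 1.21 and 2.54 under the high-Chol diet, a difference of -1.14 (SE 0.33, limma adjusted p = 0.131) that was -1.33 with slide in the model. It was called lower without high-Chol array 3 (-1.52, adjusted p = 0.0415). Cebpa and Foxa2, which maintain hepatocyte gene expression, had differences of -1.02 (SE 0.31) and -0.76 (SE 0.24), and Trim24, a cofactor of nuclear receptors, one of -0.68 (SE 0.43). That of Trim24 was -0.37 without high-Chol array 2, -1.13 without high-Chol array 3, -0.41 without normal chow array 2 and -0.34 with a normexp background. The sign was negative in 7 of 8 genes with slide in the model, in 7 of 8 with a normexp background, and in 7 of 8 without normal chow array 2, high-Chol array 1 or high-Chol array 2. The hepatocyte markers were also lower on the high-Chol diet, in 6 of 7 with a median of -0.30 (4 of 7 with a median of -0.01 with a normexp background, and 5 of 7 with a median of -0.08 after quantile normalization), and their part in the values of these hepatocyte genes was not tested.

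**Figure D5:**
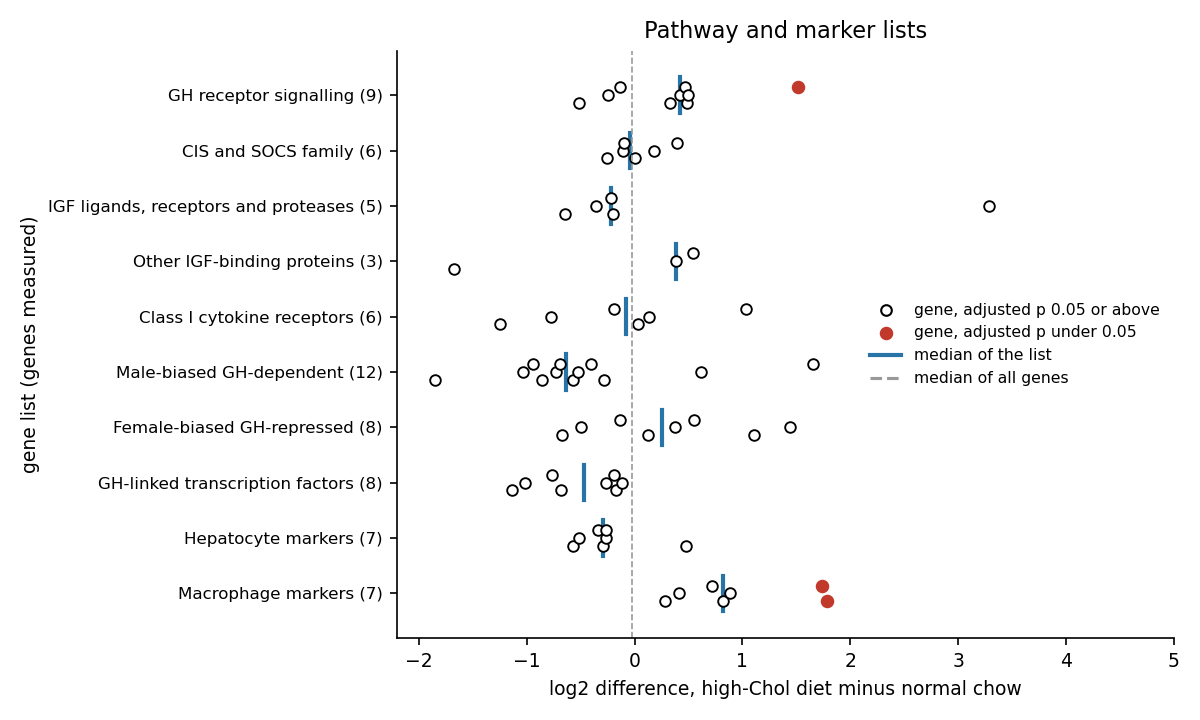
Log2 difference, high-Chol diet minus normal chow (horizontal axis), of the genes of each pathway or marker list (vertical axis, with the number measured). Open circles are genes that did not pass the test, filled circles those that did, blue bars the median of a list and the dashed line the median of all genes. The male-biased genes (median -0.63) and the transcription factors (median -0.47) lie mostly to the left, and the macrophage markers (median 0.82) to the right.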

How the data were processed

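Liver RNA of apoE-KO mice was hybridized to 6 one-colour arrays. The authors deposited scanner output with a background-subtracted spot intensity (Agilent software 9.5 for slide 1 and 9.1 for slide 2, per the file headers, and 9.1 in the submitters' processing notes), and a table of log2 values from Gene Spring, 1 per probe and diet, whose filter settings are not given in the sources used here.

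Control spots (1639 per array) and outlier spots (75 to 196 per array) were left out, and 0 to 5 saturated spots per array were kept. A probe was tested if all 3 arrays of either diet read it well above background, and the brightest of several probes was used for a gene. The diets were compared by limma 3.58.1 (R 4.3.3), with 2 groups, no covariate, Benjamini-Hochberg adjustment and a threshold of 0.05. This step was first tested on simulated data. Further software was the data.table package (version 1.17.8) and, under Python 3.11.15, numpy 2.4.6, pandas 2.3.3 and matplotlib 3.10.9. Precision is limited by how few arrays there are, and p-values measure the spread between these samples.

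Alternatives were a normexp background (offset 50), median scaling, quantile normalization, 2 other filters, the mean of a gene's probes, every probe by itself, slide as a block, slide 1 alone, each array left out, array weights, a trended and robust prior, the methods' t-test and the authors' values. The members and lists were chosen with earlier results of these data known. From each list, genes called by limma were named, and up to 4 others with the largest differences among those well above background on all arrays. Of the marker lists, genes called were named, and the other stellate cell markers, Ttr, Alb, Csf1r and Clec4f after their values were seen. Igfbp5, Stc1, Lepr, Cyp2d9, Mup1, Mup3 and Serpina1e were named outside this rule, with their values in view, and some single genes of the lists are not reported here. Array names were matched to current symbols by accession (22951 probes) or synonym. Probe positions (mm7) came from the files of slide 1 and promoter windows (GRCm38.p6) from RefSeq.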

Additional observations from a re-analysis of the deposited data

How the results depend on the processing

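Across the alternatives, 0 of 10 members were called higher by limma, and 0 were called lower except 1, Igfbp4, with array weights, and 0 to 1 when each array was left out in turn. Over all genes, the lower and higher calls were 38 and 450, against 0 and 11 with slide in the model, 0 and 0 with a normexp background, 1 and 4 by the methods' t-test, 995 and 2200 with array weights, and 786 and 3155 without high-Chol array 1, which leaves diet and slide inseparable. Of 190 values of single members under the alternatives, 19 changed sign, none of them in Stat5b, Igf1, Igfals, Cish or Igfbp4. Many of the 190 could not change sign. The trended and robust prior and the methods' t-test alter the test and not the difference. Removing the filter left each member's difference as it was. Slide 1 alone repeats the model with slide, and the mean of probes repeats the main value of single-probe genes. The share that changed sign therefore overstates the stability.

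Ghr was 0.036 and 0.19 by 2 of its other probes. As the mean of its probes it was -0.90, an average that runs over fewer probes on slide 2, where 1 bright probe lacks values on both arrays and another on high-Chol array 3. Stat5a was -0.15 after median scaling and in the authors' values, and -0.13 to 0.30 with an array left out. Socs2 was -0.68 to 0.046 with an array left out, the latter without normal chow array 2. Igfbp2 was -0.17 after median scaling and in the authors' values, -0.10 with array weights, and -0.11 to 0.18 with an array left out. Igfbp3 was -0.15 after median scaling, -0.19 as the mean of its probes, -0.47 by its other probe, -0.14 with slide as a block and on slide 1 alone, -0.16 in the authors' values and -0.10 to 0.29 with an array left out. The cause was not tested.

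Median scaling moved the median of all genes to -0.26, and 6 of 10 members lay below that median, as on the 75th percentile scale, against 5 of 10 with a normexp background or quantile normalization, and 7 of 10 with slide in the model. Igf1 was -0.06 with a normexp background and -0.19 after quantile normalization. The authors' table listed 20 of the 21 member probes, 18 of them lower, with a median of -0.27 over its 23458 probes. Cish ranged from -2.44 to -1.46 over the alternatives. No paired analysis was possible, because the labels number the replicates of each diet but do not tie these numbers to single arrays or to pairs.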
